A study of Xenopus laevis with 12 samples.

Results

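The 144 genes described here encode kinesin motors, centromere and kinetochore proteins, spindle assembly factors, spindle checkpoint proteins, Aurora and NEK kinases and cytokinesis proteins of the frog Xenopus laevis. They were chosen by gene symbol alone, as the copies of a fixed set of symbols (the kif, kifc, cenp, haus, ska, tubg, tacc, nek and sgo names, and single genes such as aurka, aurkb, ect2 and ttk), out of 18892 genes in the deposited count table. The rule itself uses no measured value, but it was set with earlier results of these data known. The 144 genes carry 100 distinct symbols, 85 of them are L homeologs and 59 are S homeologs, the copies left by the duplication of the species' genome, and 42 pairs are present as both. All 144 passed the low count filter, as did 18791 of the genes in all.

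RNA was sequenced from whole embryos at stage 9.5 (early gastrula, per the labels) in 4 groups of 3 libraries: control, genistein, BIO and Chiron. Genistein, a soy isoflavone, inhibits tyrosine kinases, and the series text gives its addition as the 4-cell stage. BIO is 6-bromoindirubin-3'-oxime. The name Chiron stands for CHIR 99021, and both compounds inhibit GSK3 and so activate Wnt signalling. Each library came from 3 pooled embryos, so no value belongs to a single embryo. No strain, clutch or dose, nor what control embryos received or when BIO and Chiron were added, is given by the sources used here. The p-values therefore measure only the spread between these libraries, which may be technical.

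A dividing cell builds a spindle of microtubules from its centrosomes and chromosomes, attaches each chromosome to it through the kinetochore, holds anaphase back by the spindle checkpoint until all are attached, and then splits by a contractile ring that the central spindle positions. Kinesins slide, shorten or walk along the microtubules, and Aurora kinases switch many of these steps on. The egg of Xenopus is laid with a store of such mRNAs and proteins for the rapid cleavage divisions, which slow near the onset of zygotic transcription, before the stage sampled here.

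Library totals ran from 11091927 to 15486533 counts. The 144 genes took 1.31 ± 0.208% of the counts in control (SD, n = 3), 1.16 ± 0.225% in genistein, 1.42 ± 0.0619% in BIO and 1.43 ± 0.0214% in Chiron. Levels are given as CPM, which are counts scaled to a common library total (TMM), and are not divided by transcript length, so levels of different genes are not compared. Mean levels ran from 0.71 CPM (kif19.S) to 520 CPM (kif22.L), and 15 genes averaged under 10 CPM. Control 1, genistein 1 and genistein 3 stood apart: mitochondrially encoded transcripts took 13.5% of the counts in control 1, 14.1% in genistein 1 and 8.37% in genistein 3, against 0.553% to 4.23% in the other 9. The same 3 libraries held the lowest shares of the 144 genes, 1.08%, 0.973% and 1.11%, against 1.35% to 1.48% in the others. Of the germ layer markers, 5 of 8 mesoderm, 8 of 8 endoderm and 12 of 12 ectoderm genes averaged at least 1 CPM. The summed ectoderm markers were lower in every genistein library (582 to 768 CPM) than in every control library (772 to 889 CPM). The list used for endoderm, copies of foxa4, mixer and sox17, was summed and not split by gene. That sum was higher in every BIO library (90.3 to 103 CPM) and every Chiron library (53.3 to 87.5 CPM) than in every control library (25.6 to 51.2 CPM). Mesoderm sums in each treatment overlapped those in control (593 to 812 CPM). The part of these markers in the results below was not tested. In whole embryos, fewer cells of a type and less RNA per cell cannot be told apart.

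In genistein-treated embryos 12 of the 144 genes fell and 2 rose against control (edgeR quasi-likelihood test, Benjamini-Hochberg adjusted p under 0.05 over all genes tested). The 12 are copies of 9 symbols: the motors kif11 and kif2c, the kinases aurka and aurkb, the spindle assembly factors tacc3 and haus8, the kinetochore gene nuf2 and the cytokinesis genes ect2 and racgap1. Their log2 fold changes ran from -0.53 to -1.36, with a median of -1.04. The 2 that rose were spc25.L and cdca8.S. Over all genes tested 3.00% fell and 0.362% rose, against 8.33% and 1.39% of the 144. The median log2 fold change was -0.13 over the 144 genes, of which 88 (61.1%) were negative, and 0.03 over all genes, of which 47.1% were negative. That median for the 144 genes was -0.02 without control 2, -0.05 without genistein 1 or without genistein 3, -0.21 without control 1 and -0.27 without genistein 2. The median over all genes lay between -0.01 and 0.05 in these fits. Without control 1, genistein 1 and genistein 3 together, the medians were -0.05 for the 144 genes (78 negative) and -0.03 for all genes. With the mitochondrial share as a covariate they were -0.06 and 0.03. In 29 of the 144 every genistein library lay below every control library, or 20.1%, where 9.67% of all genes did so, and in 4 (2.78%) every genistein library lay above, against 7.48% of all genes.

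**Figure D1:**
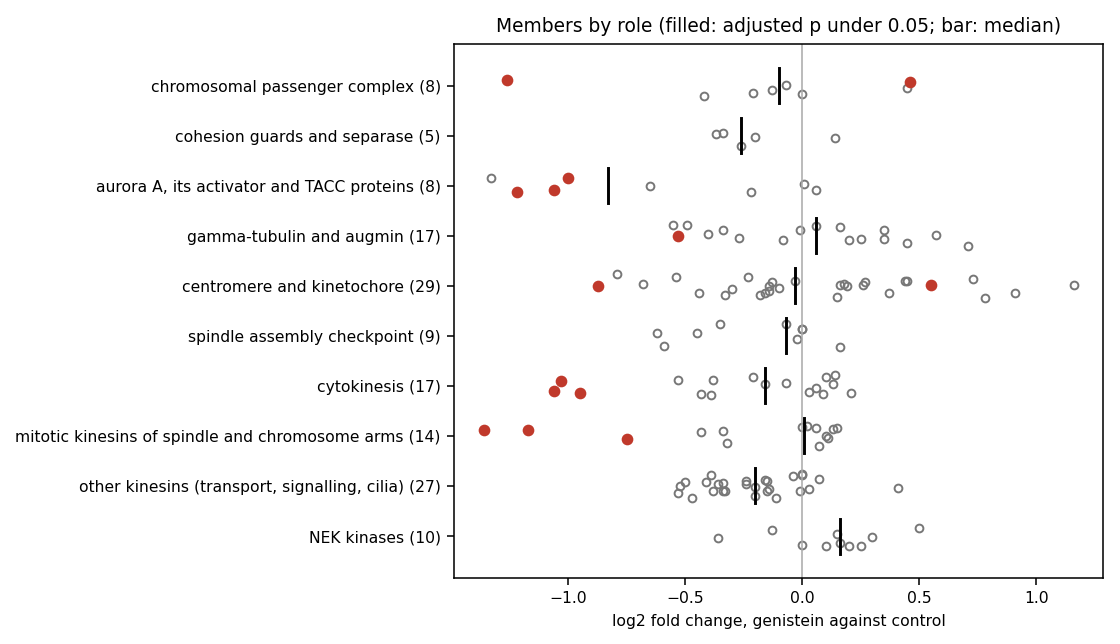
Log2 fold change in genistein against control (x axis) for each of the 144 genes, grouped by role with the number of genes in brackets; filled points have an adjusted p under 0.05 and vertical bars are medians. The Aurora A and TACC group has the lowest median, -0.83, and the 27 other kinesins hold no filled point.

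These calls rest on a spread shared by all 12 libraries. With only the control and genistein libraries fitted, edgeR called 0 of the 14 (lowest adjusted p 0.1) and 0 of the 142 members tested, beside 0.00544% of all genes. In that fit 24 members had an unadjusted p under 0.05, and no share over all genes was taken. With all 12 libraries that share was 21.1%, beside 28.5% of the 144 genes. DESeq2 on all libraries called 20 (13.9%, beside 9.1% of all genes). Counts left after dropping a single library were 9 without control 2 (6.25%, beside 1.04% of all genes), 8 without genistein 3 (5.56%, beside 0.961%) and 48 without genistein 2 (33.3%, beside 25.3%). Without the 3 libraries that stood apart, where genistein 2 alone stands for its group and is taken to vary like the others, 21 genes were called (14.6%, beside 6.95% of all genes), 17 lower and 4 higher, and they include 11 of the 14 (not haus8.L, spc25.L or cdca8.S, with adjusted p of 0.0622, 0.0581 and 0.0841). With library totals in place of TMM scaling the median of all genes moved from 0.03 to -0.09. There 14 of the 144 genes were called lower and 0 higher (9.72%, beside 4.11% of all genes), with a median of -0.24.

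In the Aurora A group 3 of 8 genes fell, 0 rose, and the median was -0.83. Aurora A is the kinase that drives centrosome maturation and spindle assembly, and TACC3 is its substrate, which carries a microtubule polymerase to the spindle. In tacc3.S the control libraries read 53, 63.4 and 58.5 CPM and the genistein libraries 25.7, 23.1 and 26 CPM. The genistein libraries all lay below the lowest control, and the log2 fold change was -1.22 ± 0.14 (SE, adjusted p = 0.00273). Its L homeolog tacc3.L gave 18.7, 14.6 and 15.6 CPM in control and 8.16, 6.36 and 8.93 CPM in genistein, again with no overlap, and fell by 1.06 on the log2 scale (SE 0.16, adjusted p = 0.00712). For aurka.S the values were 143, 125 and 111 CPM in control against 72.5, 53.3 and 63.7 CPM in genistein. The highest genistein library stood well under the lowest control, with a log2 fold change of -1.0 ± 0.17 (SE, adjusted p = 0.0112). Without genistein 3 aurka.S had an adjusted p of 0.0511. Both copies of tpx2, the activator that docks Aurora A on spindle microtubules, were near 0 (log2 fold changes 0.01 ± 0.24 for tpx2.L and 0.06 ± 0.20 for tpx2.S, SE). Within groups tpx2.L spread from 281 to 463 CPM in control and from 272 to 514 CPM in genistein. The remaining TACC genes tacc1.L and tacc2.L were not called, at -0.22 and -0.65.

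Among 14 mitotic kinesins 3 fell and 0 rose, and the median was 0.01. Kif11, known as Eg5, is the tetrameric motor that pushes spindle poles apart. The L copy, kif11.L, had the lowest log2 fold change of the called genes: it read 61.9, 74.5 and 66.2 CPM in control and 27.7, 24.3 and 27.2 CPM in genistein. The mean fell from 67.5 ± 6.37 to 26.4 ± 1.85 CPM (SD, n = 3), a ratio of 2.56 between control and genistein and a log2 fold change of -1.36 ± 0.15 (SE, adjusted p = 0.00224). Its homeolog kif11.S gave 113, 140 and 121 CPM against 45.2, 64.7 and 56.3 CPM. Here too the groups did not overlap, and the log2 fold change was -1.17 ± 0.16 (SE, adjusted p = 0.00436). Kif2c, known as MCAK, takes microtubule ends apart at kinetochores. For kif2c.S the libraries read 108, 99.3 and 93.4 CPM in control and 67.5, 52.8 and 57.8 CPM in genistein, and it fell by 0.75 on the log2 scale (SE 0.12, adjusted p = 0.00891). Its L copy read 211, 267 and 247 CPM against 210, 281 and 232 CPM, a log2 fold change of 0.00 ± 0.14 (SE). The other mitotic motors were not called, and their log2 fold changes lay between -0.43 for kif18a.L, which shortens kinetochore microtubules, and 0.15 for kif18b.S. The chromosome arm motor kif22.L was at 0.11 ± 0.21 (SE). Among kinesins not called in this fit, the covariate fit described below called kif18a.L (-0.33), kif18b.L (-0.25) and kif4a.S (-0.33) lower. It called kif22.S (0.22) higher. That fit called 39.6% of the 144 genes and 24% of all genes, and its calls in each group stand beside those shares.

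In the chromosomal passenger complex, which corrects faulty attachments and later moves to the central spindle, 1 of 8 genes fell and 1 rose. The gene that fell, aurkb.L, encodes the complex's kinase. It read 41.2, 40.9 and 45.7 CPM in control and 17.7, 17.9 and 17.7 CPM in genistein, so that the genistein libraries were nearly level. The control to genistein ratio was 2.40, the log2 fold change -1.26 ± 0.14 (SE), and the adjusted p of 0.00213 was the lowest among the 144 genes. The S copy read 26.7, 40.6 and 30.4 CPM in control and 17.8, 33.3 and 22.1 CPM in genistein, which overlap, and was not called (-0.42 ± 0.22, SE, adjusted p = 0.298). The gene that rose, cdca8.S, encodes borealin, which helps place the complex on the centromere. It gave 76.5, 68.3 and 72.3 CPM in control and 103, 91.2 and 105 CPM in genistein, with a log2 fold change of 0.46 ± 0.10 (SE, adjusted p = 0.0351). With library totals in place of TMM that value was 0.34, with an adjusted p of 0.112, and 8 of the 12 fits that left out a library did not call it. Its homeolog cdca8.L had 0.45 ± 0.17 (SE, adjusted p = 0.168). The scaffold incenp (-0.13 for incenp.L, -0.21 for incenp.S) and survivin (0.00 for birc5.L, -0.07 for birc5.S) were not called. The same held for the 5 genes that guard or cleave cohesin, with log2 fold changes of -0.34 and -0.37 for the separase copies espl1.L and espl1.S. A shugoshin gene, sgo1.L, was at -0.26 (adjusted p = 0.209). The covariate fit described below called sgo1.L (-0.29, adjusted p = 0.0223) and espl1.S (-0.28, adjusted p = 0.0429) lower. It also called aurkb.S lower (-0.34) and cdca8.L higher (0.37).

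Of 29 centromere and kinetochore genes 1 fell and 1 rose, with a median of -0.03. Both belong to the Ndc80 complex, the rod that grips microtubule ends. In nuf2.L the control libraries read 34.7, 29.7 and 29.8 CPM and the genistein libraries 20.9, 13.9 and 16.6 CPM, and it fell by 0.87 on the log2 scale (SE 0.16, adjusted p = 0.0142), with an adjusted p of 0.0699 without genistein 3. In spc25.L they read 76.5, 62 and 69.7 CPM against 107, 89.1 and 109 CPM, and it rose by 0.55 (SE 0.11, adjusted p = 0.0255). Neither gene's groups overlapped. The rise of spc25.L became 0.43 with an adjusted p of 0.0566 under library totals, and 7 of the 12 fits without a library did not call it. Within the same complex ndc80.L stood just past the threshold: its libraries read 18.8, 20.7 and 19.2 CPM in control and 13.1, 10.3 and 13.3 CPM in genistein, with a log2 fold change of -0.68 ± 0.17 (SE, adjusted p = 0.0507; DESeq2 adjusted p = 0.00698). Its homeolog ndc80.S was at -0.16 ± 0.20 and nuf2.S at -0.18 ± 0.09 (SE). Among the centromere-bound CENP genes the log2 fold changes were -0.44 for cenpc.L, -0.54 for cenpi.L and 0.37 for cenpa.L, the centromeric histone, and edgeR called 0 of them. DESeq2 called cenpi.L (-0.52, adjusted p = 0.0484). The covariate fit described below called cenpc.L (-0.41), cenpi.L (-0.49) and cenpo.L (-0.29) lower, and cenpa.L (0.30), cenpk.L (0.33) and cenpm.L (0.42) higher. It also called ndc80.L lower (-0.69). The gene cenpj.L, which shares the CENP name but acts in centriole growth, was at -0.79 ± 0.23 (SE, adjusted p = 0.0912). DESeq2 called cenpj.L lower (-0.77, adjusted p = 0.0257), as did the covariate fit (-0.71).

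In the edgeR fit used above none of the 9 spindle checkpoint genes was called, although ttk.S came close. TTK, the MPS1 kinase, starts the checkpoint signal at unattached kinetochores. The S copy read 56.2, 67.3 and 62.5 CPM in control and 32.8, 51.1 and 39.9 CPM in genistein, which do not overlap (-0.59 ± 0.15, SE, adjusted p = 0.0582; DESeq2 adjusted p = 0.00781), while ttk.L was at -0.02 ± 0.13 (SE). The log2 fold change of bub1b.L, the checkpoint's BubR1, was -0.62 ± 0.25 (SE, adjusted p = 0.19), and its control and genistein libraries overlapped. DESeq2 also called bub3.S lower (-0.33, adjusted p = 0.0434). The covariate fit described below called ttk.S (-0.54), bub1b.L (-0.52), bub3.L (-0.53) and bub3.S (-0.33) lower. The mitochondrial share moved with mad2l1.S, which encodes the inhibitor that checkpoint signalling produces: it read 122, 57.8 and 64.3 CPM in control and 123, 64.1 and 85.8 CPM in genistein, highest in the libraries numbered 1. With that share as a covariate its log2 fold change was 0.04 (adjusted p = 0.796).

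Among 17 cytokinesis genes 3 fell and 0 rose, with a median of -0.16. ECT2 is the exchange factor that activates RhoA at the cell equator, and it is recruited there by centralspindlin, the complex of RACGAP1 and KIF23. For ect2.S the libraries read 37, 37.1 and 39.1 CPM in control and 15.2, 20.8 and 18 CPM in genistein, a fall of 1.06 on the log2 scale (SE 0.13, adjusted p = 0.0029). For ect2.L they read 133, 161 and 146 CPM against 58.8, 95.4 and 62 CPM, and it fell by 1.03 (SE 0.18, adjusted p = 0.0128). Genistein 2 was the highest of its group for both copies, and the groups did not overlap. The call of ect2.L was lost without control 2 or without genistein 3, with a highest adjusted p of 0.0653. The tandem copy racgap1.2.L gave 16.6, 17.3 and 13.6 CPM in control and 6.82, 7.18 and 10.7 CPM in genistein, and fell by 0.95 (SE 0.20, adjusted p = 0.028), a call that 5 of the 12 fits without a library did not make. The other copies, racgap1.L and racgap1.S, stood at 0.10 and 0.09, and kif23.L and kif23.S at -0.07 and 0.21. The microtubule bundler prc1 and the ring scaffold anillin were not called either in this fit. Under library totals prc1.2.L was called lower (-0.66, adjusted p = 0.0423). The covariate fit described below called prc1.2.L (-0.63), prc1.2.S (-0.46) and anln.L (-0.33) lower. It called prc1.S (0.21), kif23.S (0.30) and kif20a.S (0.22) higher. Without the covariate and with TMM the prc1 and anillin log2 fold changes were -0.53 for prc1.2.L, -0.38 for prc1.2.S, -0.16 for prc1.L, 0.14 for prc1.S and -0.39 for anln.L. The copies of kif20a, a motor of the central spindle, were at 0.03 and 0.13.

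Of the 17 genes of the gamma-tubulin ring and augmin, which nucleate microtubules at poles and on existing microtubules, 1 fell and 0 rose. This was haus8.L, the augmin subunit known in human cells to bind the parent microtubule. It read 39.3, 37.8 and 37.4 CPM in control and 25, 28 and 26.5 CPM in genistein, and fell by 0.53 on the log2 scale (SE 0.10, adjusted p = 0.0163). The groups were tight and apart, but 4 of the 12 fits without a library did not call it. Past the threshold stood tubgcp3.L (-0.40, adjusted p = 0.0593), which DESeq2 called lower (-0.38, adjusted p = 0.00539). The covariate fit described below also called tubgcp2.L (-0.43), tubgcp3.L (-0.37), tubgcp4.L (-0.50) and tubgcp6.L (-0.27) lower. It called tubg1.L (0.48), tubg1.S (0.35), haus1.L (0.39) and haus2.L (0.29) higher. The 10 NEK kinases, several of which act on centrosomes and cilia, had 0 calls in the edgeR fit used above and a median of 0.16. With the covariate nek1.L was called higher (0.37).

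The 27 kinesins of transport, signalling and cilia also had 0 calls in genistein against control, but 23 of them were negative, with a median log2 fold change of -0.20. The lowest were kif9.S at -0.53 and kif13a.S at -0.52, and the motor of axonal vesicles kif1a.S was at -0.50 ± 0.15 (SE, adjusted p = 0.103). Conventional kinesin, the cargo motor, gave -0.14 for kif5b.L and -0.20 for kif5b.S. With the covariate described below, the kinesins kif1a.S (-0.49), kif24.L (-0.27), kifc3.L (-0.32) and kifc3.S (-0.32) were called lower. The same 27 genes had medians of 0.16 in BIO and 0.21 in Chiron against the same controls. These medians moved with single libraries: in genistein the median was -0.04 without control 2, -0.05 without genistein 1, -0.11 without genistein 3, -0.36 without control 1 and -0.40 without genistein 2. Without the 3 libraries that stood apart it was -0.05, with 14 of 27 negative, and the medians in BIO and Chiron were 0.00 and 0.03.

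**Figure D2:**
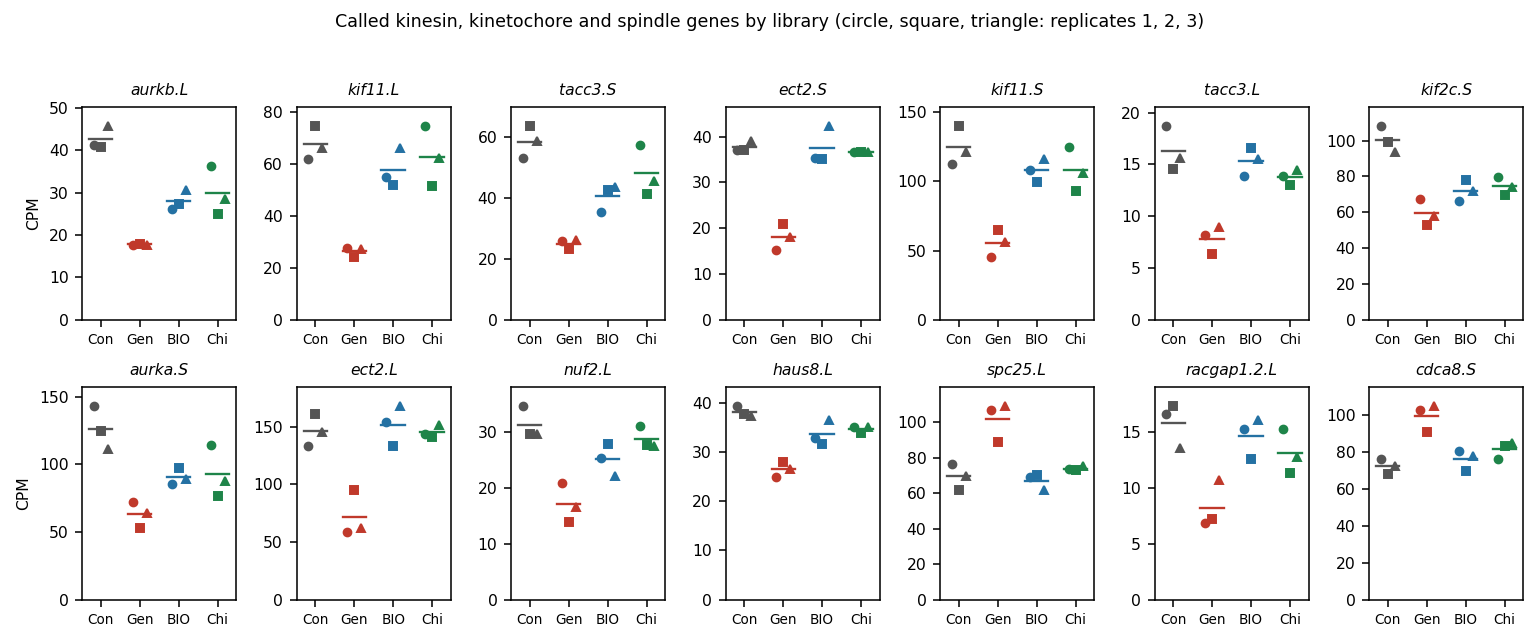
Level in CPM (y axis, from 0) of the 14 called genes in each of the 12 libraries, by group (Con control, Gen genistein, Chi Chiron); symbols mark replicates 1 to 3 and lines are group means. In every panel the 3 genistein libraries are on one side of the 3 controls, below them in 12 panels and above them for spc25.L and cdca8.S.

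The 6 genes above 10 CPM with the widest errors in genistein against control varied within both groups, mostly in the order of the mitochondrial share. SKA2, of the complex that holds kinetochores to microtubule ends, read 176, 26.2 and 58.3 CPM in control for ska2.L and 322, 31.8 and 226 CPM in genistein. That order is the order of the mitochondrial share in both groups, and the log2 fold change was 1.16 ± 0.75 (SE, adjusted p = 0.397). The homeolog ska2.S (34.8, 8.7 and 17.1 CPM against 53.5, 12.3 and 34.9 CPM), the Ndc80 gene spc24.L (145, 51.2 and 77.7 CPM against 229, 58.1 and 183 CPM) and gamma-tubulin tubg1.L (236, 123 and 156 CPM against 382, 136 and 323 CPM) had the same order. With the mitochondrial share as a covariate these 4 genes were called higher, at 0.72 for ska2.L (adjusted p = 0.0489), 0.45 for ska2.S (0.0366), 0.49 for spc24.L (0.0473) and 0.48 for tubg1.L (0.0168). Without the 3 libraries that stood apart they were not called, and their values were -0.42, -0.08, -0.16 and -0.05. The reverse order was seen in cenpf.L, with 98.6, 196 and 168 CPM in control and 88, 225 and 107 CPM in genistein. For aurka.L the libraries read 127, 44.5 and 54.5 CPM in control and 47.3, 9.08 and 33.6 CPM in genistein, so each genistein library was below the control of the same rank in mitochondrial share, while the groups overlapped. Its log2 fold change was -1.33 ± 0.53 (SE, adjusted p = 0.186), but -1.66 (adjusted p = 6.76e-05) with the mitochondrial share as a covariate. Without the 3 libraries that stood apart it was -2.46 (adjusted p = 0.00637). The covariate fit called 57 of the 144 genes (39.6%, beside 24% of all genes), 39 lower and 18 higher, all 14 calls among them. Among other named genes called only with the covariate, some were nearer 0 without the 3 libraries that stood apart. These were aurkb.S (-0.11), bub1b.L (-0.31), anln.L (-0.21), ttk.S (-0.36) and cdca8.L (0.23). Others were further from 0: ndc80.L (-0.96), prc1.2.L (-0.92), prc1.2.S (-0.53), espl1.S (-0.32), kif23.S (0.36), prc1.S (0.29) and kif20a.S (0.34).

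**Figure D3:**
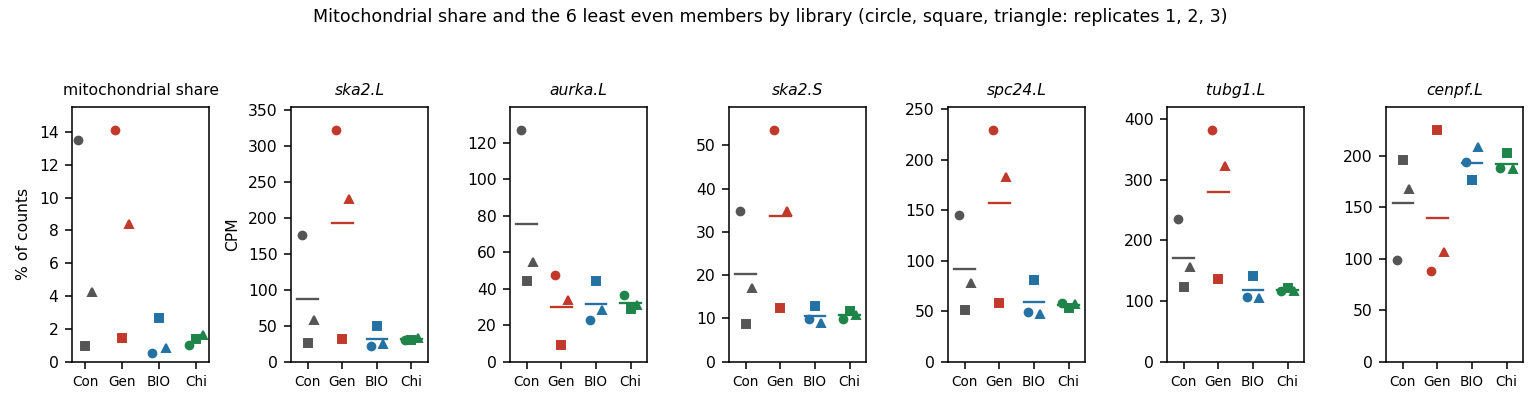
Share of counts from mitochondrially encoded genes (left panel, %) and level in CPM of the 6 genes above 10 CPM with the widest standard errors in genistein against control (other panels), for each library by group (Con control, Gen genistein, Chi Chiron); lines are group means. Control 1, genistein 1 and genistein 3 are high for ska2.L, ska2.S, spc24.L and tubg1.L and low for cenpf.L.

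In BIO against control 0 of the 144 genes were called by edgeR, where 0.0266% of all genes were, and in Chiron against control 0 were called, where 0% of all genes were. At an unadjusted p under 0.05 there were 11 genes in BIO (7.64%, beside 5.86% of all genes), all lower. There were 10 in Chiron (6.94%, beside 6.02%), 9 of them lower. By direction in BIO, 7.64% were lower, beside 3.79% of all genes, and 0% higher, beside 2.07%. In Chiron 6.25% were lower, beside 3.81%, and 0.694% higher, beside 2.21%. DESeq2 called 3 in BIO (2.08%, beside 0.607% of all genes), sgo1.L, aurkb.L and kif2c.S, all lower. In Chiron it called 0, beside 0.293% of all genes. Shugoshin, which shields centromeric cohesin, had the smallest p in BIO: sgo1.L read 196, 203 and 201 CPM in control, 136, 141 and 147 CPM in BIO and 154, 164 and 158 CPM in Chiron. All BIO and Chiron libraries were below all controls, with log2 fold changes of -0.50 ± 0.11 (SE, adjusted p = 0.307) and -0.34 ± 0.11 (SE, adjusted p = 0.645). The survivin copy birc5.L gave 97, 86.3 and 82.9 CPM in control, 69.6, 66.9 and 71.6 CPM in BIO and 72.6, 62.6 and 64.2 CPM in Chiron. Again no treated library reached the lowest control (-0.36 ± 0.11 and -0.42 ± 0.11, SE), whereas birc5.L was at 0.00 ± 0.11 (SE) in genistein. Every BIO library lay below every control in 9.03% of the 144 genes, beside 7.06% of all genes. Every BIO library lay above every control in 7.64%, beside 8.13%. For Chiron the shares were 11.1% beside 9.35% below, and 14.6% beside 11.1% above. Medians over the 144 genes were 0.05 in BIO and 0.09 in Chiron, beside 0.01 and 0.02 over all genes. They were 0.00 and 0.01 without control 1, 0.15 and 0.19 without control 2, and -0.04 and -0.02 with the mitochondrial share as a covariate. Dropping the 3 libraries that stood apart gave sgo1.L a log2 fold change of -0.52 in BIO. The covariate fit called 2 genes in BIO (1.39%, beside 1.43% of all genes), sgo1.L at -0.44 and aurkb.L at -0.62.

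The 3 treatments share their controls, so the values for the 14 called genes are given side by side without a test of their likeness. For aurkb.L the BIO libraries read 26.2, 27.4 and 30.7 CPM and the Chiron libraries 36.4, 25 and 28.4 CPM, between genistein and control. Its log2 fold changes were -1.26, -0.60 and -0.51 in genistein, BIO and Chiron. For kif2c.S they were -0.75, -0.48 and -0.43, and for aurka.S -1.0, -0.48 and -0.45. The ect2 copies differed from these: ect2.S read 35.4, 35.2 and 42.3 CPM in BIO and 36.6, 36.7 and 36.7 CPM in Chiron, at the level of control. Its log2 fold changes were -1.06, 0.00 and -0.04, and those of ect2.L -1.03, 0.05 and -0.01. For kif11.L they were -1.36, -0.23 and -0.11.

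**Figure D4:**
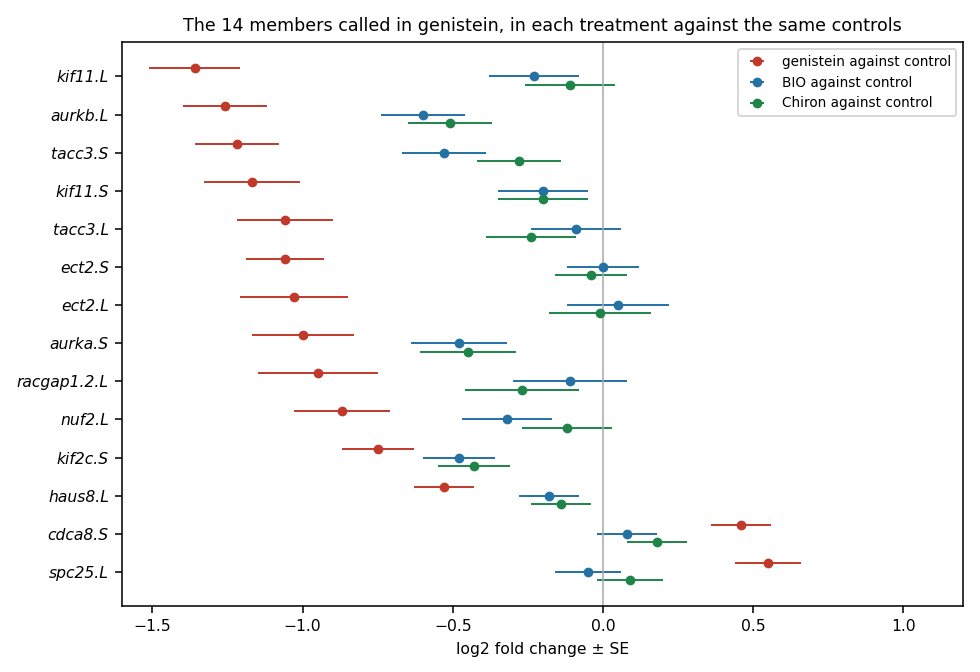
Log2 fold change ± SE (x axis) of the 14 genes called in genistein, for genistein, BIO and Chiron, each against the same 3 control libraries. The ect2 copies lie at -1.06 and -1.03 in genistein and between -0.04 and 0.05 in BIO and Chiron, while aurkb.L lies at -1.26, -0.60 and -0.51.

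Genistein was also set directly against each GSK3 inhibitor. These contrasts share the 3 genistein libraries with the one above and with each other. Against BIO 9 of the 144 genes were lower in genistein (6.25%, beside 2.94% of all genes) and 1 was higher (0.694%, beside 0.692%). The lower genes were both copies of ect2, kif11 and tacc3, with aurkb.L, ttk.S and racgap1.2.L, and the higher gene was spc25.L. Log2 fold changes were -1.06 ± 0.13 for ect2.S (SE, adjusted p = 0.005), -1.13 ± 0.15 for kif11.L (adjusted p = 0.00644) and 0.61 ± 0.11 for spc25.L (adjusted p = 0.0208). The aurkb.L difference, -0.66 ± 0.14 (SE, adjusted p = 0.0313), stood beside -1.26 against control. It was not called without the 3 libraries that stood apart (adjusted p = 0.0999), under a replicate block (0.0566) or in 7 of the 12 fits without a library. Against Chiron 9 genes were lower (6.25%, beside 2.17% of all genes) and 0 higher, where 0.181% of all genes were. They were the copies of kif11, ect2 and tacc3, with aurkb.L, nuf2.L and ttk.S, and the lowest adjusted p was 0.00379 (kif11.L, -1.25 ± 0.15, SE). For ttk.S the BIO libraries read 64.8, 61.9 and 72.5 CPM and the Chiron libraries 65.4, 66.1 and 64.2 CPM, all above every genistein library, with log2 fold changes of -0.69 ± 0.15 (SE, adjusted p = 0.0358) and -0.66 ± 0.15 (SE, adjusted p = 0.0456). Every genistein library lay below every BIO library in 22.2% of the 144 genes, beside 14.4% of all genes, and above in 9.03%, beside 11%. Against Chiron the shares were 27.8% beside 16.4% below, and 11.1% beside 13% above. These calls of ttk.S held in 3 and 2 of the 12 fits without a library, and neither held without the 3 libraries that stood apart (adjusted p 0.0843 and 0.151). Against BIO, those of ect2.S and kif11.L held in all 12 and those of the 6 genes other than these, aurkb.L and ttk.S in 2 to 11. The spc25.L call did not hold without the 3 libraries that stood apart (adjusted p = 0.0687). Against Chiron, those of kif11.L, ect2.S and tacc3.S held in all 12 and those of the 5 genes other than these and ttk.S in 6 to 9. The aurkb.L call did not hold without the 3 libraries (adjusted p = 0.0931).

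Call numbers against BIO and Chiron moved with single libraries. They were 34 and 38 without control 1 (23.6% and 26.4%, beside 14.4% and 14.8% of all genes) and 80 and 88 without genistein 2 (55.6% and 61.1%, beside 46.8% and 48.4%). Without genistein 1 they were 5 and 5 (3.47% in each, beside 0.855% in each). Without genistein 3 they were 3 and 4 (2.08% and 2.78%, beside 0.478% and 0.733%). Against BIO they were 6 (4.17%) without control 3, BIO 2 or Chiron 3, beside 1.58%, 1.59% and 1.41% of all genes. They were 3 without BIO 1 (2.08%, beside 0.632%) and 2 without BIO 3 (1.39%, beside 0.255%). Against Chiron they were 3 (2.08%) without Chiron 1 or Chiron 3, beside 0.569% and 0.595%. DESeq2 called 39 against BIO (21 lower, 18 higher) and 38 against Chiron (22 lower, 16 higher), where it called 20.6% and 20.9% of all genes. With only the libraries of the groups compared edgeR called 0 in each, beside 0% and 0.0922% of all genes. At an unadjusted p under 0.05 there were 42 and 48 in these fits, for which no share over all genes was taken. With all 12 libraries that share was 32.6% and 32.8%, beside 39.6% of the 144 genes in each contrast. Between BIO and Chiron 0 of the 144 genes and 0% of all genes were called by edgeR, and DESeq2 also called 0, beside 0.0106%. At an unadjusted p under 0.05 there was 1 gene (0.694%, beside 1.15% of all genes). That gene, cenpn.S, differed by -0.25 (95% interval -0.48 to -0.02, adjusted p = 1), and all 144 log2 fold changes lay between -0.36 and 0.50. The genes with the next smallest p were tacc2.L at 0.50, tacc3.S at -0.25 and sgo1.L at -0.16 (95% interval -0.40 to 0.08).

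Most homeologs had log2 fold changes of the same sign in genistein against control. Of the 42 pairs 32 had the same sign, and across pairs the log2 fold changes of L and S copies had a Pearson correlation of 0.75 and a Spearman correlation of 0.61. This is a description across genes, which are not independent, and reads shared by close copies could be split by the counting. Both copies were called in 3 pairs (kif11, ect2, tacc3) and 1 copy in 5 (aurkb.L, kif2c.S, nuf2.L, aurka.S, cdca8.S). For these counts, the same-sign count and the correlations no value over all homeolog pairs was taken. The same-sign count includes pairs with a copy near 0, such as kif2c (0.00 for L, -0.75 for S) and ttk (-0.02 for L, -0.59 for S). Whether a copy moved apart from its partner was tested as the change of the log2 L to S ratio, with limma over 5203 homeolog pairs, a test added after the values had been seen. It called 9 of the 42 pairs (21.4%, beside 8.11% of all pairs), and the ratios of kif11, ect2, tacc3, aurka and cdca8 were not among them. In BIO against control it called 0 of the 42, beside 0.211% of all pairs, with 8 at an unadjusted p under 0.05. In Chiron it also called 0, beside 0.0192%, with 5 at an unadjusted p under 0.05. No share over all pairs was taken at that unadjusted level.

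In kif2c the L to S ratio was 1.96, 2.68 and 2.64 in control and 3.11, 5.32 and 4.01 in genistein. The groups were apart, and the log2 ratio rose by 0.75 (SE 0.19, limma adjusted p = 0.0288), with the S copy called lower and the L copy not called. In nuf2 it was 0.582, 0.503 and 0.507 in control and 0.402, 0.27 and 0.314 in genistein, a change of -0.71 ± 0.16 (SE, limma adjusted p = 0.0174). In aurkb it was 1.54, 1.01 and 1.5 against 0.995, 0.539 and 0.8, a change of -0.82 ± 0.23 (SE, limma adjusted p = 0.0496). Without the 3 libraries that stood apart, genistein 2 alone stands for its group, and these changes were 1.0, -0.90 and -1.19. Of the 12 fits without a library, 8 called kif2c, 10 called nuf2 and 2 called aurkb. For the other 6 pairs, 11 of these fits called kif13b, 9 called tubgcp4, 2 called tubgcp3, 2 called sgo2, 1 called kif23 and 1 called ttk. The transport kinesin kif13b had a ratio of 11, 10.5 and 13.4 in control and 18.2, 18.1 and 18.1 in genistein, a change of 0.65 ± 0.13 (SE, limma adjusted p = 0.0117). The gamma-tubulin ring gene tubgcp4 changed by -0.71 ± 0.16 (SE, limma adjusted p = 0.0203), and ttk by 0.59 ± 0.16 (SE, limma adjusted p = 0.0443). For tubgcp3, kif23 and sgo2 the changes were -0.40, -0.31 and -0.35. In BIO and Chiron against the same controls these ratios were not called. There kif2c changed by 0.49 and 0.48, nuf2 by -0.25 and -0.05, and aurkb by -0.72 and -0.52. The changes were -0.32 and -0.26 for tubgcp3, -0.13 and -0.51 for tubgcp4, and -0.20 and -0.17 for sgo2. They were -0.07 and -0.05 for kif23, 0.01 and -0.03 for kif13b, and -0.18 and -0.11 for ttk. In genistein against control, single libraries set how many pairs were called. The number was 1 without genistein 3, 2 without control 1 or control 2, and 3 without control 3. It was 4 without any 1 of the BIO libraries, without Chiron 1 or without Chiron 3, and 5 without Chiron 2. With only the control and genistein libraries 0 were called. No share over all pairs was taken in these fits.

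**Figure D5:**
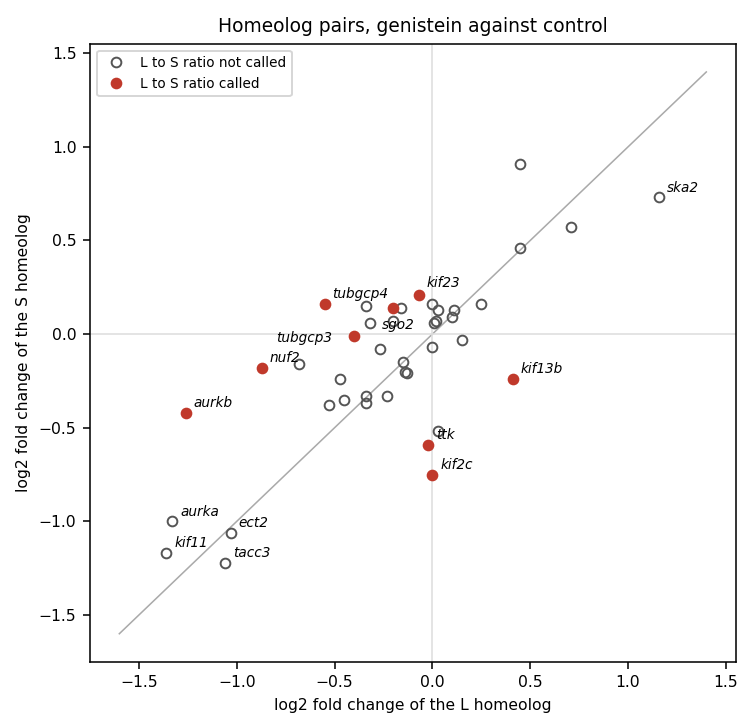
Log2 fold change in genistein against control of the L copy (x axis) and the S copy (y axis) for the 42 homeolog pairs; the diagonal marks equal change and filled points have a called change of the L to S ratio. The pairs kif11, ect2 and tacc3 lie near the diagonal at the lower left, and kif2c lies at 0.00 for L and -0.75 for S.

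A further list of 80 spindle and kinetochore genes outside the chosen symbols was read in the same way. In genistein against control 6 of them fell (7.5%, beside 3.00% of all genes) and 0 rose, with a median log2 fold change of -0.08. They were the centriole duplication genes plk4.L (21 CPM in control, 9.73 CPM in genistein, -1.11 ± 0.18, SE, adjusted p = 0.00916), cep152.L (-0.91) and cep63.L (-0.74). The other 3 load dynein and checkpoint proteins on kinetochores: zw10.S (-0.60), spdl1.S (-0.56) and kntc1.L (-1.04). Against BIO 3 fell (plk4.L, spdl1.S, zw10.S), a share of 3.75% beside 2.94% of all genes. Against Chiron 4 fell (5%, beside 2.17%), plk4.L, cep152.L, spdl1.S and ckap5.L, the polymerase that TACC3 carries (-1.23 ± 0.27, SE, adjusted p = 0.0385).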

How the data were processed

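RNA was sequenced from 12 pools of 3 whole embryos with a strand-specific poly-A protocol, from 60 ng of total RNA, per the labels' protocols. The authors deposited raw read counts, whole numbers for each gene and sample, and all columns matched a sample by name. The submitters' processing notes name STAR 2.5.2b and edgeR. Genome build, annotation, counting tool and strand setting were not stated there or in the labels, and overlapping antisense genes and close copies may share reads. A RefSeq table of the assembly Xenopus laevis 10.1 held 132 of the 144 names as symbols.

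Counts were analysed with edgeR 4.0.16 in R 4.3.3: filterByExpr (minimum count 10), TMM, 1 quasi-likelihood model of all 12 libraries with a mean per group, 6 contrasts, and Benjamini-Hochberg adjustment over 18791 genes at 0.05. The common coefficient of variation was 22.4%. The L to S ratio test used limma 3.58.1 on log2 counts with 0.5 added. Alternatives were DESeq2 1.42.0, library totals, no filter, other library sets, the mitochondrial share as covariate, a replicate block and summed homeologs. Both tests were checked on simulated counts.

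The members and lists were chosen with earlier results of these data known. Named genes are every called member, the 4 of smallest p where none was called, a preset list of symbols such as aurkb and ect2, and called genes of the wider list. Others named for their group, spread or ratio were chosen after their values were seen. Counts of replicates differed by more than sampling noise (chi-square per degree of freedom 2.31 to 209), so no library was counted as a repeat of another in its group. Libraries of different groups were not compared in this way. The chi-square values do not show that replicates came from separate pools.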

Additional observations from a re-analysis of the deposited data

How the results depend on the processing

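No gene called in the edgeR model with only a mean per group changed sign in that contrast under any setting that kept homeologs apart. Genes called only in another fit could do so. In genistein against control ska2.L, ska2.S, spc24.L and tubg1.L, called higher with the covariate, were negative without the 3 libraries that stood apart. Removing the low count filter left every count of called genes within 1.5 times. In genistein against control 7 of the 14 calls (aurkb.L, kif11.L, kif11.S, tacc3.L, tacc3.S, ect2.S and kif2c.S) held in all 12 fits that left out 1 library. The number called in those fits ranged from 8 to 48, beside 0.961% to 25.3% of all genes. It was 57 with the mitochondrial share as covariate (beside 24% of all genes) and 0 with only the 2 groups fitted (beside 0.00544%). With homeologs summed, which tests fewer genes, it was 9 of 102 (8.82%, beside 2.87%). For BIO against control, 0 became 3 by DESeq2 (beside 0.607% of all genes) and 2 with the covariate (beside 1.43%). Against BIO, 10 became 39 by DESeq2 (beside 20.6% of all genes), 17 with library totals (5.36%) and 0 with 2 groups (0%). It became 21 with the covariate (6.83%), 5 with homeologs summed (2.77%) and 2 to 80 with 1 library left out (0.255% to 46.8%). Against Chiron, 9 became 38 by DESeq2 (20.9%), 0 with 2 groups (0.0922%) and 15 with the covariate (5.09%). It became 3 with homeologs summed (2.1%) and 3 to 88 with 1 library left out (0.569% to 48.4%). For the L to S ratio, 9 pairs became 0 with 2 groups and 1 to 10 with 1 library left out, with no share over all pairs taken. Where not set by fewer libraries or genes, the cause was not tested.

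With a replicate block 12 members were called against control (14 without), 7 against BIO (10), 8 against Chiron (9) and 7 ratio pairs (9). Under the block 2.13%, 1.81% and 1.43% of all genes were called against control, BIO and Chiron. Lost under the block were racgap1.2.L and cdca8.S against control (adjusted p 0.0503 and 0.0576), tacc3.S, aurkb.L and racgap1.2.L against BIO (0.0584, 0.0566 and 0.0722) and ttk.S against Chiron (0.0561). Whether equal replicate numbers mark a shared clutch or batch is not stated. Over 18 same-numbered pairs the correlation of deviations ran from -0.611 to 0.809, 5 pairs were over 0.1, and 5 of 12 libraries matched their own number best. Deviations were taken from group means that include the 3 libraries that stood apart, so these correlations cannot decide the pairing.

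A count of 0 in a library allows up to 0.185 to 0.288 CPM (3 counts, counting error only), beside a lowest member mean of 0.71 CPM.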

Other observations

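One gene model that the deposited table names only provisionally as kif20a, on an L chromosome, lies outside the symbol rule. It had a log2 fold change of -0.51 in genistein against control (edgeR adjusted p = 0.0569), beside 0.03 and 0.13 for kif20a.L and kif20a.S.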
